A study of Mus musculus with 6 samples.

Results

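Potassium channel genes were taken as the protein-coding genes of the RefSeq annotation of mm10 whose symbol starts with Kcn, which gave 94 of 21887 protein-coding genes. They were examined in the accessible chromatin of mouse liver, as mapped by ATAC-seq, an assay that cuts and tags open DNA with a transposase. The animals were male and wild type and were kept on a High-fat Diet, with 3 libraries from the inbred strain C57BL/6J and 3 from the inbred strain 129S1/SvImJ. All 6 libraries shared the sex, genotype and diet, and the labels do not say whether replicates were separate animals or give an age. The labels also carry an antibody entry, Esrrg, that has no role in the assay, and name the transposed material by an unexplained abbreviation. The libraries were represented by 1 combined list of 120905 intervals, each given by position alone. No interval was tied to a strain or library or carried a read count, so the strains could not be compared, the depth is unknown, and every value below is a description without a test or replicate error.

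Potassium channels let potassium leave or enter a cell down its electrochemical gradient and so set the membrane voltage. Their pore-forming subunits fall into voltage-gated channels, inward rectifiers, tandem-pore leak channels and channels opened by calcium or sodium inside the cell, while auxiliary subunits bind the pore and change its gating or its traffic to the membrane. In liver such channels are known for cell volume control and for the driving force of bile formation and solute uptake, whereas many family members are best known from neurons and muscle. Split by symbol alone, the 94 genes were 40 voltage-gated members, 15 inward rectifiers, 14 tandem-pore members, 8 calcium- or sodium-activated members and 17 auxiliary or regulatory members. The last are called auxiliary here and include Kcnrg. By its symbol Kcnu1 was placed with the calcium- or sodium-activated genes, a label that does not state how its channel is gated.

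An interval was counted for a gene when it overlapped the gene span or 10 kb to either side. It was placed at an end if it overlapped 1 kb to either side of an end of the span, otherwise inside if it overlapped the span, and otherwise in the flank. Each gene was set beside the 500 protein-coding genes nearest to it in span length, called genes of similar length, since long genes hold more intervals. For the 5 members among the 250 longest genes, those neighbours were mostly shorter: their median span was 476 kb, against 1136 kb for Kcnip4 and 713 kb for Kcnma1.

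The share of potassium channel genes with an accessible interval at an end was lower than that of genes of their length. Of the 94 members, 40 had an interval at an end (42.6%), against 61.5% of all protein-coding genes and 67.8% of the genes of similar length. At 37 of these 40, at least 1 end interval lay at no end of another protein-coding gene. The exceptions were Kcnab2, Kcnab3 and Kcnh6, whose end intervals also lay at an end of Nphp4, Trappc1 and Ace3. Of all intervals in the list, 46.2% had the narrowest width found in it, and those above that width are called wide here. Counting wide intervals only, 31 members (33.0%) had an end interval, against 51.7% of all and 57.9% of similar-length genes. The shortfall was present in each class of span length. It was 12 of 36 members under 20 kb (33.3%, against 52.3% of all protein-coding genes of that length), 16 of 35 members of 20 to 100 kb (45.7% against 71.9%) and 12 of 23 over 100 kb (52.2% against 73.4%).

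The number of intervals per member was low for the members' length. Members had a median of 3 intervals, as did all protein-coding genes, although their median span of 32.7 kb exceeded the 17.2 kb of all. More intervals than the median of similar-length genes were found at 24 members (25.5%), against 42.5% of all protein-coding genes. Fewer were found at 56 members (59.6%), against 38.3% of all, and 14 members stood at that median. No interval at all lay in the windows of 14 members (14.9%), against 16.1% of all protein-coding genes and 9.37% of genes of similar length. Next to 16.1% the count of empty members is near the background and is not a result about the channels.

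**Figure D1:**
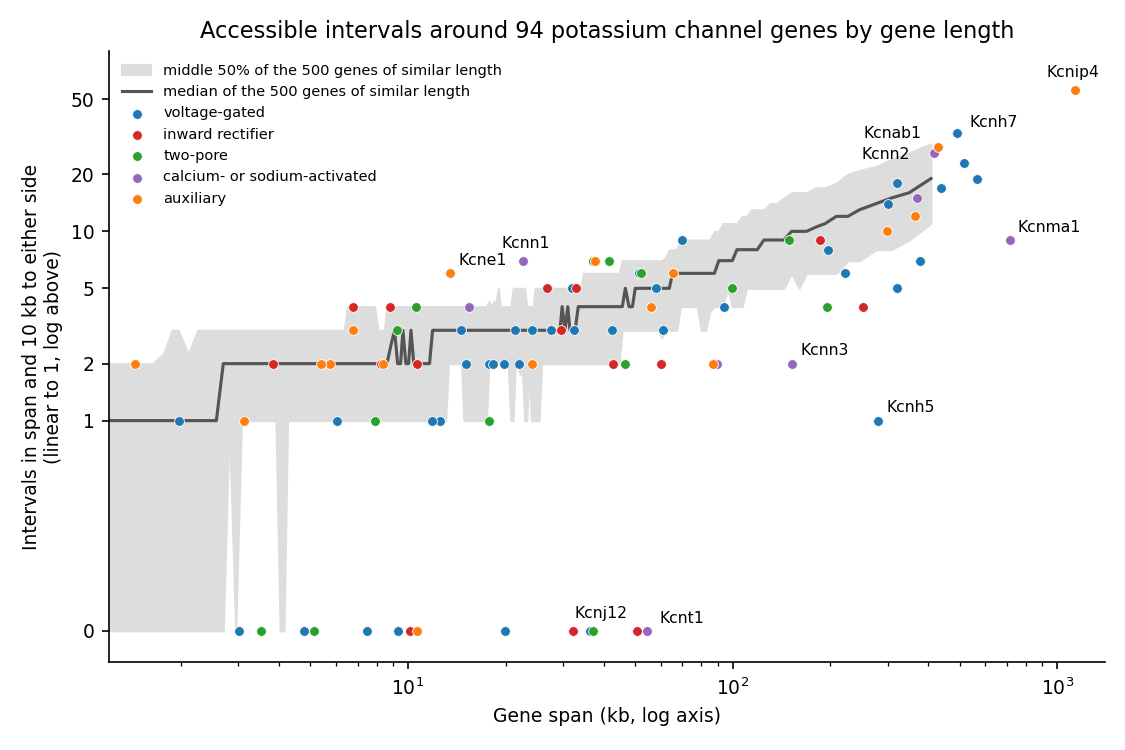
Intervals in the span and 10 kb to either side (vertical axis, linear to 1 and log above) against gene span in kb (log axis) for the 94 members, 1 point each, coloured by family. The grey line and band are the median and middle 50% of the 500 protein-coding genes of similar length, drawn up to a span of 408 kb. Of the 94 points, 56 lie below their own similar-length median, with Kcnip4 (56 intervals) at the top and Kcnh5 (1 interval in 280 kb) far below the band.

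The deficit differed by position. The 94 windows held 522 intervals, none shared by a pair of members, of which 51 were at an end, 380 inside and 91 in the flank. As shares these were 9.77%, 72.8% and 17.4%, against 19.7%, 54.5% and 25.8% over all protein-coding genes, a comparison that leaves the longer spans of the members aside. Set against the mean sum expected from similar-length genes, members held 0.77 times as many intervals in all, 0.57 times at ends, 0.78 times inside and 0.88 times in flanks. The flank is partly other genes' territory: 34 of the 91 flank intervals lay inside or at an end of another protein-coding gene. Wide intervals made up 66.7% of those at ends, 42.1% of those inside and 70.3% of those in flanks. These shares by position were not computed for other genes, so the contrast is not a trait of the members. Over all positions 49.4% of the members' intervals were wide, against 61.1% over all protein-coding genes. Members held 0.66 times as many wide intervals as similar-length genes. Within gene spans the members held 3.88 intervals per 100 kb, against 6.16 over all protein-coding genes, a comparison that again leaves length aside. Set against similar-length genes, the members held 0.75 times as many intervals within spans.

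The share with an end interval was under that of similar-length genes by more than 20 percentage points in 4 families, while calcium- or sodium-activated genes were near the background of 61.5%. An end interval was found at 18 of 40 voltage-gated genes (45.0%, against 68.3% of similar-length genes) and 6 of 15 inward rectifiers (40% against 67.2%). It was found at 5 of 14 tandem-pore genes (35.7% against 68.2%), 5 of 8 calcium- or sodium-activated genes (62.5% against 71.7%) and 6 of 17 auxiliary genes (35.3% against 65.3%). Families of 8 to 40 genes give wide intervals, so the order of the families is not resolved. In the summed count, voltage-gated genes held 0.69, inward rectifiers 0.63, tandem-pore genes 0.72 and calcium- or sodium-activated genes 0.67 times the intervals of similar-length genes. Auxiliary genes held 1.14 times, with 0.52 times at ends and 1.21 times inside. That excess rested on Kcnip4, which supplied 56 of the 145 auxiliary intervals, and the ratio was 0.88 without it. Without Kcnip4 the ratio over all members was 0.71.

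**Figure D2:**
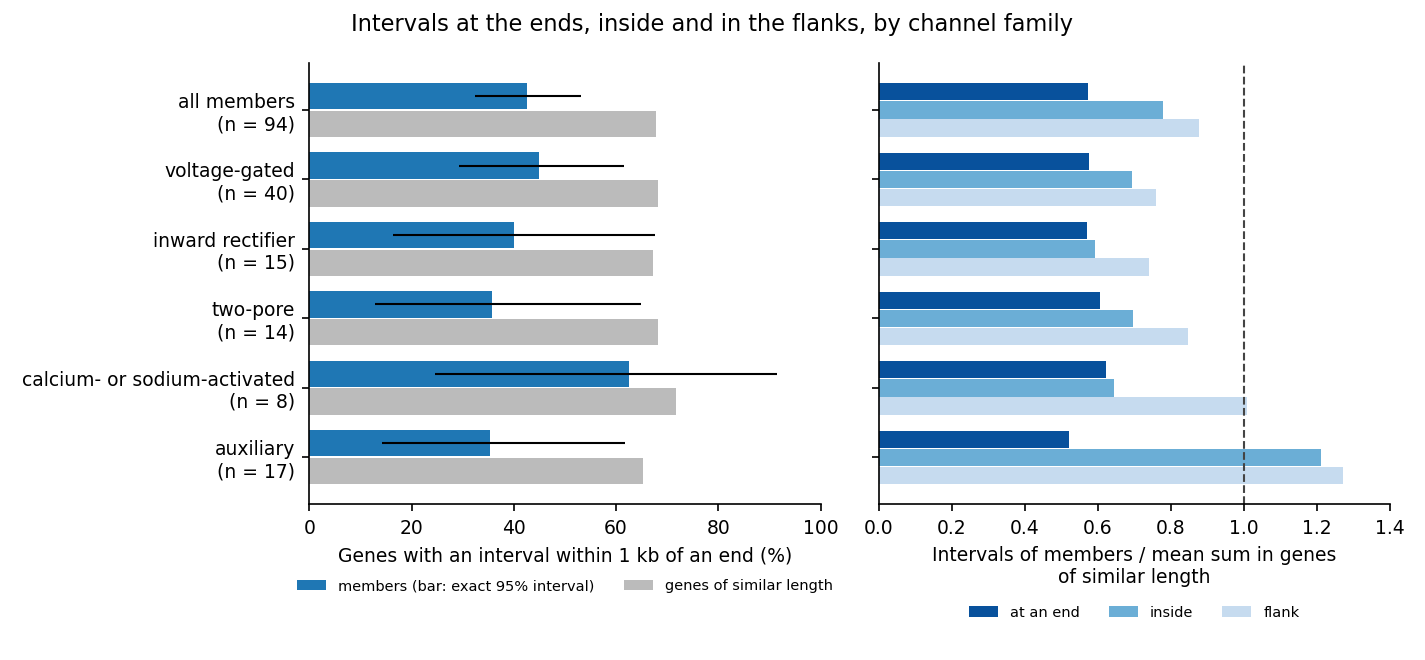
Left, percent of genes with an interval within 1 kb of an end for all members and for each family (blue, with exact 95% Clopper-Pearson intervals that cover counting error only) and for genes of similar length (grey). Right, the members' summed intervals divided by the mean sum in similar-length genes, at ends, inside and in flanks, with the dashed line at 1; the end ratio of all members is 0.57 and the auxiliary inside ratio is 1.21.

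At start sites, where strand is known, the share with an interval was lower as well. RefSeq start sites of GRCm38.p6, the assembly of mm10, were at hand for 69 members, with 94 sites in all and more than 1 site at 15 members. An interval lay within 1 kb of a listed start at 31 of the 69 (44.9%), against 61.7% of 17492 protein-coding genes. It overlapped the window from 250 bases before to 50 after a start at 21 members (30.4%), against 52.1% of all. Among the 69, the start-site end of the span was marked at 22 (31.9%, against 57.8% of all) and the opposite end at 5 (7.25% against 13.2%). Of these members, 20 were marked at the start-site end only, 3 at the opposite end only and 2 at both. The 25 members without a listed start had an end interval at a higher share than the 69, near the 61.5% of all protein-coding genes. The lower end share of members than of all protein-coding genes thus lay mainly among the 69. Values at starts, including those by CpG count, thus cover the more sparsely marked part of the members. The densest bin of distance was the same in both groups: 16.0% of member starts had an interval centre in the 250 bases upstream, against 32.0% of the starts of other protein-coding genes.

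The sequences upstream of starts covered by an interval are shown for 6 members, read 5′ to 3′ on the gene's strand and ending at the base before the start, because they show what the open stretch contained. Capitals mark the bases inside the deposited interval. Kcnk5 encodes an alkaline-activated tandem-pore channel of epithelia, and its window is chr14:20181783-20182032, minus strand. Kcnj10, a glial and renal inward rectifier, is shown at chr1:172340960-172341209, plus strand. Kcnj2, the classical strong inward rectifier, is shown at chr11:111065914-111066163, plus strand. Kcnh6, a gene of the Erg group of voltage-gated channels, is shown at chr11:106007898-106008147, plus strand. Kcnip4 and Kcne3, both auxiliary, are shown at starts inside their spans, chr5:49285660-49285909, minus strand, and chr7:100178433-100178682, plus strand.
Kcnk5: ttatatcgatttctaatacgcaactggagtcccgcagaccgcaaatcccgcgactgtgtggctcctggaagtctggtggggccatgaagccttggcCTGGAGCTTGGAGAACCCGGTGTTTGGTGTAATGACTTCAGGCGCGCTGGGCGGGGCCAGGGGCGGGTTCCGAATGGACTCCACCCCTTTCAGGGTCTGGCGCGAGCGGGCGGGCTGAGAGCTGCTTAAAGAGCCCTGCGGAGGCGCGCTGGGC
Kcnj10: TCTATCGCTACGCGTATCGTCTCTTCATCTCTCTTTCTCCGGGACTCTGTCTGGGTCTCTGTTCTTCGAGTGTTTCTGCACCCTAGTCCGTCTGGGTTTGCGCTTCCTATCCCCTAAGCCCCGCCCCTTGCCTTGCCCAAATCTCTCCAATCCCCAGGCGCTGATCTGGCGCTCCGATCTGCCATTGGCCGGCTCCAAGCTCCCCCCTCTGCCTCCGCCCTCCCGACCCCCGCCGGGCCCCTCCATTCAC
Kcnj2: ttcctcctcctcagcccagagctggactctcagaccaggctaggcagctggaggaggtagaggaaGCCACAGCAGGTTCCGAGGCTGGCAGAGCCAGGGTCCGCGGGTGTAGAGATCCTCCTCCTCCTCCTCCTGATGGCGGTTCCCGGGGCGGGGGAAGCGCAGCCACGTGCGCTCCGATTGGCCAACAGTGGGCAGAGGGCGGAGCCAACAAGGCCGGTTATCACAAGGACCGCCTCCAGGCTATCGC
Kcnh6: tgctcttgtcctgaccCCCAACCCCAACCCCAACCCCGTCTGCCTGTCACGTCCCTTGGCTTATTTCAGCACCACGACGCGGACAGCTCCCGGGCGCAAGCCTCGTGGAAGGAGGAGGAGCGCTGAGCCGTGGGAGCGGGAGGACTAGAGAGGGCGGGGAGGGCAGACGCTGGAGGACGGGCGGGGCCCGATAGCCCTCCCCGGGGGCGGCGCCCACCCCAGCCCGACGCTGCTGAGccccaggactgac
Kcnip4: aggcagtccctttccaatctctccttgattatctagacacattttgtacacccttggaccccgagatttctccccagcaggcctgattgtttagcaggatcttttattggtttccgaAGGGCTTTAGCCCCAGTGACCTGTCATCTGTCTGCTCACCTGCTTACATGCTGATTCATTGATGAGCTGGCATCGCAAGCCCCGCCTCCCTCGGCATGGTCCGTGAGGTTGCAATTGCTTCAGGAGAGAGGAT
Kcne3: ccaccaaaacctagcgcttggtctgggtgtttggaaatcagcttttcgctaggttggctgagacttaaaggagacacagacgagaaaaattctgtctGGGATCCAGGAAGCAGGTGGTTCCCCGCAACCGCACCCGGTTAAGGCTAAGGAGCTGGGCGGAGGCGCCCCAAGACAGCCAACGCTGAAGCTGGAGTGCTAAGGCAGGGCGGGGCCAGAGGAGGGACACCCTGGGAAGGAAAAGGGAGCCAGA

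The interval covered 154 of these 250 bases at Kcnk5, all 250 at Kcnj10, 185 at Kcnj2, 221 at Kcnh6, 133 at Kcnip4 and 153 at Kcne3. The interval centre lay upstream of the start in each case, by 49 bp at Kcnk5, 128 bp at Kcnj10, 81 bp at Kcnj2, 124 bp at Kcnh6, 11 bp at Kcnip4 and 38 bp at Kcne3. The windows shown are ones whose upstream bases an interval covered, which favours such a centre, so it is not a result about the members. The windows of Kcnk5, Kcnj10, Kcnj2 and Kcnh6, taken over the 300 bases that include 50 after the start, held 26, 21, 18 and 24 CpG dinucleotides, whereas Kcnip4 held 7 and Kcne3 held 12.

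CpG-rich starts, a kind of promoter that is open in many tissues, carried an interval at a lower share of potassium channel genes than of other genes. Counted once per gene at the start listed first, an interval lay within 1 kb of 14 of 27 member starts with 15 or more CpG (51.9%, exact 95% interval 31.9 to 71.3%), against 89.0% of 8260 other protein-coding genes. With 5 to 14 CpG it lay near 10 of 27 (37.0% against 57.03%), and with 0 to 4 CpG near 1 of 15 (6.67% against 16.2%). The unmarked member starts had a median of 7 CpG and 57% GC, against 3 CpG and 48.0% GC at unmarked starts of other genes, while marked starts had medians of 20 and 21 CpG. The 13 CpG-rich starts without an interval were those of Kcnj4 (41 CpG), Kcnma1 (36), Kcna2 (31), Kcnj6 (30), Kcnk15 (24), Kcnh4 (23), Kcns1 (22), Kcnh8 (21), Kcna4 (20), Kcnh2 (19), Kcnip2 (18), Kcnc4 (17) and Kcnh5 (17). By family, 8 of 16 CpG-rich voltage-gated starts and 2 of 4 CpG-rich inward rectifier starts carried an interval, close to the share over all 27.

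**Figure D3:**
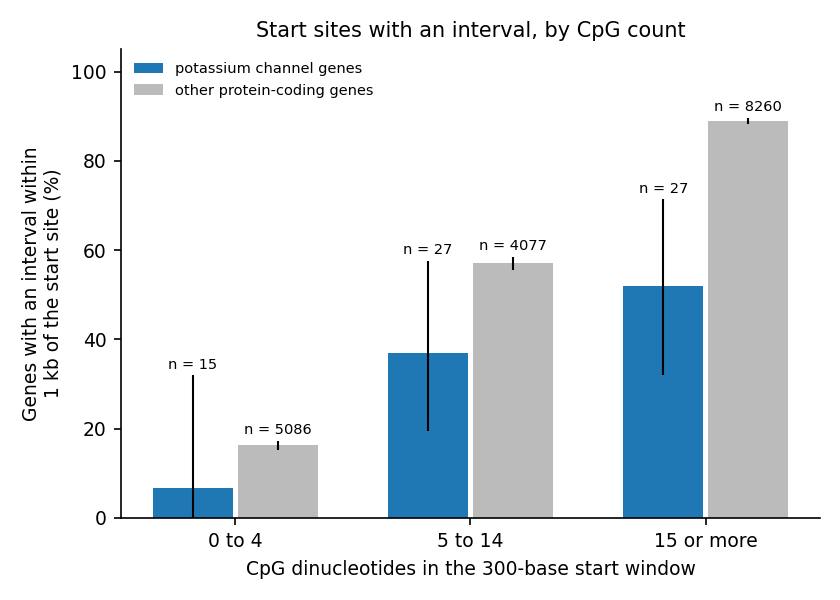
Percent of genes with an interval within 1 kb of the start listed first, by the number of CpG dinucleotides in the 300-base start window, for members (blue) and other protein-coding genes (grey), with exact 95% Clopper-Pearson intervals and the number of genes above each bar. The share rises with CpG count in both groups, and in the class of 15 or more it is 51.9% for members and 89.0% for other genes.

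To show what such unmarked windows contain, the same 250 upstream bases are printed for Kcnj4, a strong inward rectifier of brain and heart, and Kcnma1, the pore of the large-conductance calcium-activated channel. Here capitals mark CpG dinucleotides, since no base lay in an interval. The windows are chr15:79505242-79505491 and chr14:24004206-24004455, both minus strand.
Kcnj4: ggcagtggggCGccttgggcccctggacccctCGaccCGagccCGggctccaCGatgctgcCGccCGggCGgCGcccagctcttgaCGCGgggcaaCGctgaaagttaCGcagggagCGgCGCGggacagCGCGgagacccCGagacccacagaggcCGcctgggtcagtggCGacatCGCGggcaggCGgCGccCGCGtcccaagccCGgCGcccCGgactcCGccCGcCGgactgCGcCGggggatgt
Kcnma1: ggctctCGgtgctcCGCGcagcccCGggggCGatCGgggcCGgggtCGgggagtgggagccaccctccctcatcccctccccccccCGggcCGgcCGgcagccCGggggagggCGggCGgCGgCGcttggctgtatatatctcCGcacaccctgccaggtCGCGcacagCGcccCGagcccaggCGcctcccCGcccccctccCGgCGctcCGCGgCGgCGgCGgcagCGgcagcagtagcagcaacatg

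The upstream bases of Kcnj4 held 35 CpG and those of Kcnma1 held 31, more than the 19 of Kcnk5 or the 17 of Kcnj10. No interval lay in the window of Kcnj4, and the interval nearest to the Kcnma1 start was centred 4270 bp upstream.

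Short motifs were searched on both strands of the 300-base windows of the 69 starts listed first, as exact letter matches that are not binding sites in themselves. The GC box GGGCGG was present in 36 windows (52.2%, against 46.3% of all promoters) and the CCAAT box CCAAT in 21 (30.4%, against 39.0%). The ETS motif CCGGAAG was found in 2 (2.90%, against 11.9%), at Kcnh7 and Kcnip2, and TATAAA in 3 (4.35%, against 13.3%), at Kcnj13, Kcnj9 and Kcnj15. The clock-factor E-box CACGTG was found in 5 (7.25%, against 7.90%), at Kcne4, Kcnn4, Kcnh4, Kcnj2 and Kcnk5, and in Kcnj2 it lies within the capitals printed above. TTCAGCACC, a half-site of the neuronal gene repressor REST, was found at Kcnh6, within the capitals, and in 0.394% of all promoters. NRF1 (GCATGCGC), forkhead (TGTTTAC) and estrogen-related receptor (TCAAGGTCA) letters were in none of the 69 windows, and in 3.61%, 2.94% and 0.332% of all promoters.

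**Figure D4:**
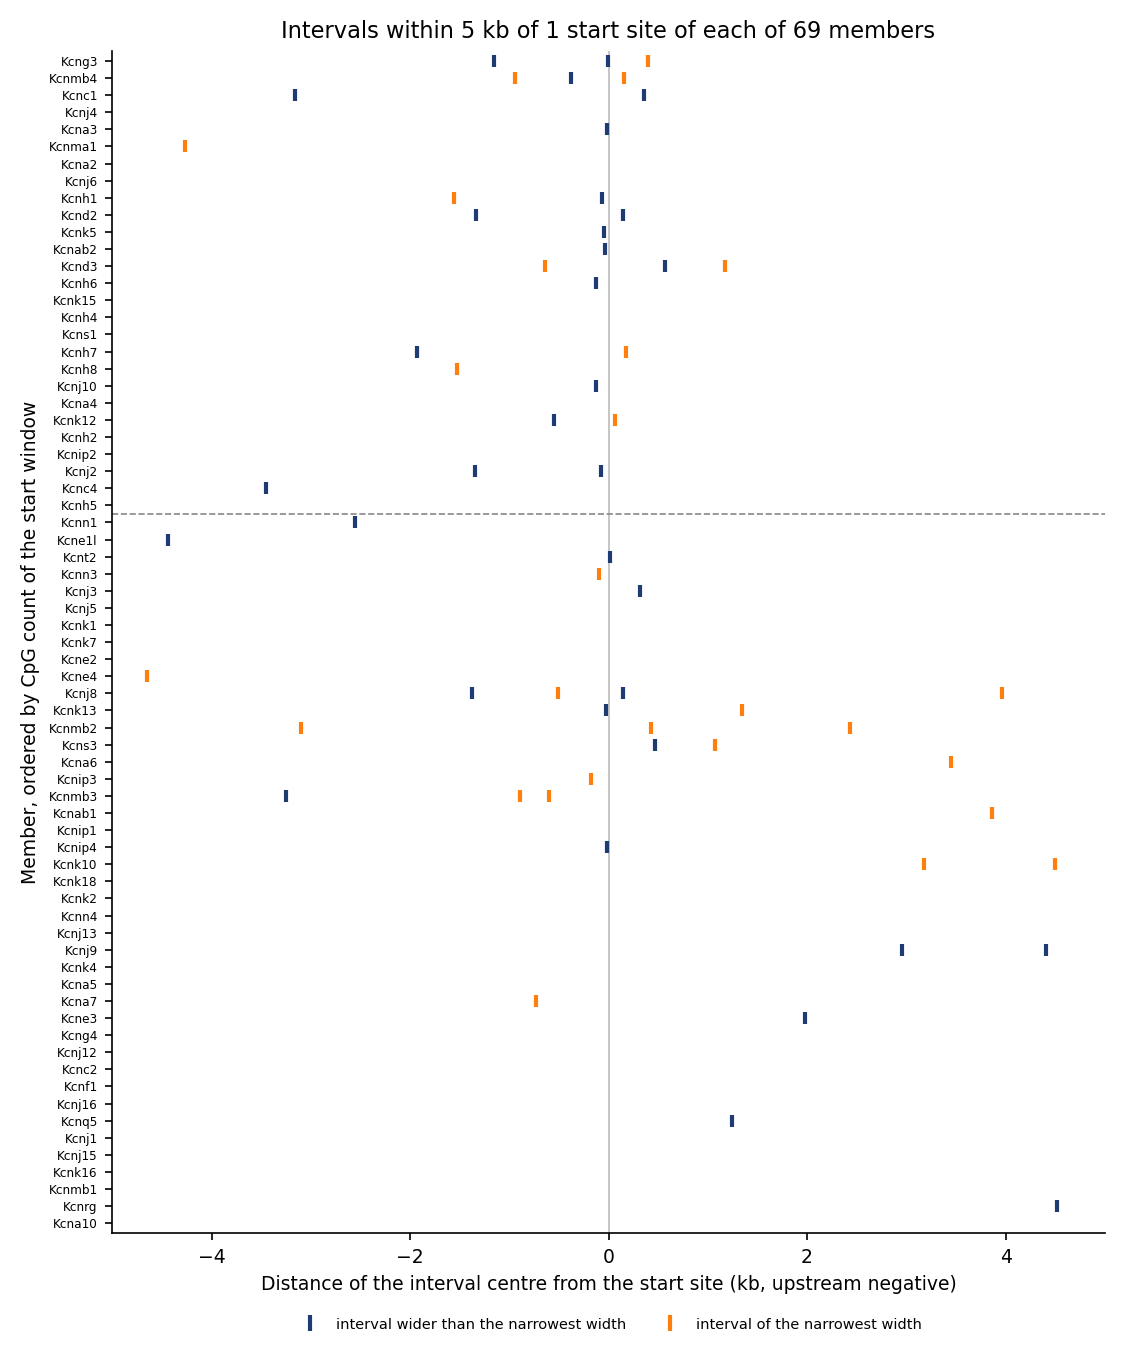
Interval centres within 5 kb of the start listed first for 69 members, 1 row each, against distance in kb with upstream negative, ordered by CpG count with the dashed line below the 27 starts of 15 or more CpG. Blue ticks are wide intervals and orange ticks intervals of the narrowest width; 13 of the 27 rows above the line have none within 1 kb.

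Among voltage-gated genes, long spans held the most intervals. Kcnh7, an Erg-group channel of neurons, had 33 intervals in 491 kb (similar-length median 24), with 1 at its start-site end. Kcnd2, which carries transient outward current, had 23 in 514 kb (median 24), and Kcnq5, an M-current subunit, had 19 in 564 kb (median 24). Kcnq1, the channel that pairs with Kcne subunits in heart and epithelia, had 18 intervals in 320 kb at chr7:143106877-143427050 (median 16), of which 13 were wide. Its end interval was 311 bp wide, and 7 of the 18 lay within 50 kb of sequence from that end. The antisense transcript Kcnq1ot1 lies within Kcnq1, and since intervals carry no strand the pair cannot be told apart. Kcnb2, a delayed rectifier, had 17 (median 21) and Kcnq3, another M-current subunit, had 14 (median 15). Kcng2, an electrically silent subunit, had 9 in 69.7 kb (median 6), of which 2 were wide.

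Other voltage-gated genes were sparse for their length. Kcnh5 had 1 interval in 280 kb (median 14), and 97.6% of similar-length genes had more. Kcnh1 had 5 in 321 kb (median 16), 1 of them 64 bp upstream of its start, and Kcnh8 had 7 in 376 kb (median 17), none of them wide. Kcnd3 had 6 in 222 kb (median 12), 3 of them at its ends, 2 around the start and 1 centred 778 bp beyond the opposite end. Kcnh5, Kcnh1, Kcnh8 and Kcnn3 were chosen for mention after their values were seen.

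The Shaker-related genes, whose symbols start with Kcna, formed a sparse group. The 8 genes had 10 intervals in all, 0.46 times the sum of similar-length genes. None exceeded its similar-length median, against 42.5% of all protein-coding genes, and 4 stood at it. This was not particular to the Kcna genes. None of the 2 Kcnb, 4 Kcnc, 3 Kcnd, 3 Kcns and 2 Kcnv genes exceeded its median, and 5 of the 40 voltage-gated genes did (12.5%). An end interval was found at Kcna3, centred 16 bp upstream of its start, and at Kcna7, centred 732 bp upstream. Kcna1, Kcna4 and Kcna5 had no interval. Kcna5, Kcna1 and Kcna6 lie near each other on chromosome 6 and Kcna3, Kcna2 and Kcna10 on chromosome 3, so they do not sample separate regions. The electrically silent subunit genes Kcnf1, Kcns1 and Kcnv1 also had none, and Kcnv1 is, after Kcna4, the longest voltage-gated gene without an interval (19.8 and 36.2 kb).

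Inward rectifiers had a median of 2 intervals, against 3 for genes of similar length. Kcnj3, a G-protein-gated subunit, had 9 in 186 kb (median 10). Kcnj8 and Kcnj11 encode pores of ATP-sensitive channels. Kcnj8, at chr6:142564837-142571614, had 4 intervals in 6.78 kb (median 2), including 1 centred 144 bp inside its start and 1 centred 514 bp upstream. Kcnj11, at chr7:46097123-46100952, had 2 in 3.83 kb (median 2), 1 at each end. Of their partner sulphonylurea receptors, Abcc9 had 6 intervals (median 8) with 1 at an end and Abcc8 had 3 (median 6) with none at an end.

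Kcnj10 and Kcnj16, whose products can form a joint channel, differed. Kcnj10, at chr1:172341210-172374085, had 5 intervals (median 3), each of them wide, with a 274 bp interval over its start window printed above. Kcnj16, at chr11:110968033-111027968, had 2 (median 5), with none within 1 kb of its 4 listed starts. Kcnj12 (50.7 kb, median 5), Kcnj4 (32.3 kb, median 3) and Kcnj13 (10.2 kb, median 3) had no interval, and 95.6% of genes similar in length to Kcnj12 had at least 1. Kcnj12 and Kcnj4 belong with Kcnj2 to the strong inward rectifiers, and of the 3 genes Kcnj2 alone had intervals, 2 in its window.

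Tandem-pore genes ranged from well covered to empty. Kcnk5, at chr14:20140057-20181782, had 7 intervals in 41.7 kb (median 4), 4 of them wide, and 81.2% of similar-length genes had fewer. Kcnk3, an acid-sensitive leak channel, had 7 in 37.1 kb (median 4), 1 of them at its lower-coordinate end. Kcnk10, a mechanically gated channel, had 9 in 149 kb (median 10), none at an end of its span and 1 near an inner start. Kcnk12 had 6 in 52.2 kb (median 5), with 2 at each end, and 1 of the 6 was wide. Kcnk1, a weak inward-rectifying leak channel, had none in 37.0 kb at chr8:125993655-126030685 (median 4), nor did Kcnk15 (5.13 kb) or Kcnk7 (3.51 kb).

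Calcium- and sodium-activated genes had a median of 5.5 intervals, against 8.5 at genes of similar length. Each of the 4 Kcnn genes, which encode small- and intermediate-conductance calcium-activated channels, had an interval at an end. The share was 71.35% among genes similar in length to them and 61.5% over all protein-coding genes. With wide intervals only, 3 of the 4 had one at an end, against 59.5% of similar-length genes. Kcnn2 had 26 in 417 kb (median 20) and Kcnn1 had 7 in 22.5 kb (median 3), with 92.0% of similar-length genes below Kcnn1. Among the 7 intervals of Kcnn1, 1 of 277 bp was centred 20 bp from an inner start, and 4 were in the flanks, which reach Arrdc2 and Ccdc124. Kcnn4, the intermediate-conductance channel, had 4 in 15.4 kb at chr7:24369826-24385212 (median 3), each of them wide, and its end interval lay at the end opposite the start. Kcnn3 had 2 in 152 kb (median 10), 1 of them 93 bp upstream of its start.

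The sodium-activated genes and Kcnma1 differed in density. Kcnt2 had 15 intervals in 368 kb (median 17), 13 of them wide, and 1 centred 11 bp inside its start. Kcnt1 had none in 54.5 kb (median 5). Kcnma1, at chr14:23292288-24005110, had 9 in 713 kb (median 24), none within 1 kb of its ends, and the longest stretch between neighbouring interval centres was 208 kb.

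**Figure D5:**
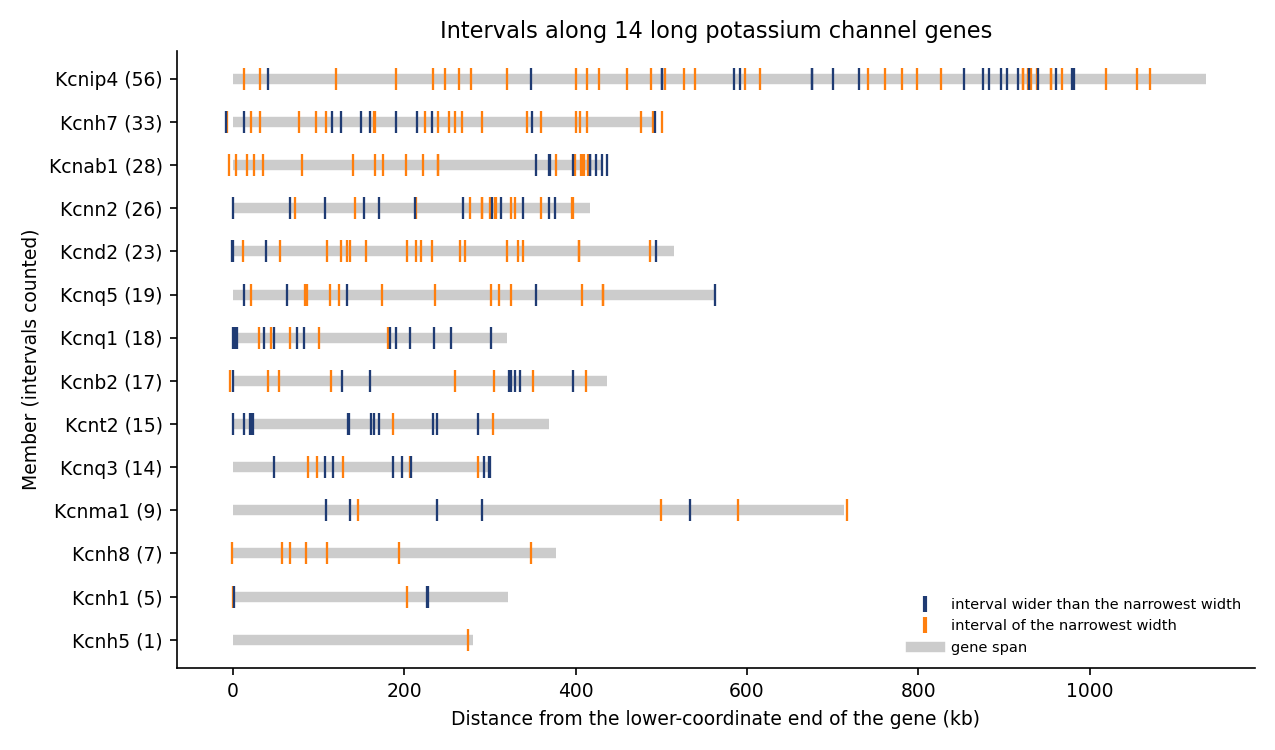
Interval centres along 14 long members, as distance in kb from the lower-coordinate end of the span (grey bar), with the interval count beside each symbol. Blue ticks are wide intervals and orange ticks intervals of the narrowest width; Kcnip4 (56) and Kcnh7 (33) have ticks along most of the span, while Kcnma1 (9), Kcnh8 (7), Kcnh1 (5) and Kcnh5 (1) have long stretches without any.

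Several auxiliary genes had an interval at a start inside the span and none at its ends. Of the 15 with listed starts, 9 had an interval within 1 kb of any listed start (60%, against 61.7% of all protein-coding genes). In this count genes with several starts, such as Kcnab1 and Kcnip1, had more windows, so the 2 shares being close does not show parity. At the start listed first, an interval lay near 2 of 3 auxiliary genes with 15 or more CpG and 4 of 12 with fewer. At an end of the span, 6 of the 17 had one. With wide intervals only, 4 of the 15 had one near a start (26.7%, against 52.7% of all). Kcnip4, which binds the pore subunits of transient outward current, had 56 intervals in 1136 kb at chr5:48389503-49525122 (median 24), more than 93.6% of its similar-length genes. Of these 56, 21 were wide, none lay at an end of the span, and 11 lay within 1 window of 50 kb. Per length of span it held 4.93 intervals per 100 kb, near the median of 4.94 for protein-coding genes over 100 kb, so its count stands out beside neighbours that were mostly shorter and not in density. Kcnab1, a Shaker-channel beta subunit, had 28 in 429 kb (median 21), none at an end and 1 centred 128 bp upstream of an inner start.

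The short auxiliary genes included well covered members. Kcne1, the small subunit that slows Kcnq1, had 6 intervals in 13.5 kb (median 3), more than 94.4% of similar-length genes, with 3 of the 6 in the flanks and 1 at an end. Kcne3, an epithelial partner of Kcnq1, had 2 in 8.36 kb (median 2), 1 of them over its inner start printed above. Kcnmb3, a beta subunit of the Kcnma1 channel, had 7 in 37.8 kb (median 4), and 2 of its 3 flank intervals lay in or at Pik3ca or Zfp639. Kcnmb1, the smooth-muscle beta subunit, lies within the span of Kcnip1 and had no interval.

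Other ion-handling genes gave a scale for these values, to be read beside the 61.5% of all protein-coding genes with an end interval. Calcium channel subunit genes had an end share like that of potassium channel genes, with 11 of 26 (42.3%, against 72.5% of similar-length genes), and a lower summed ratio of 0.65. Sodium channel genes had 9 of 14 (64.3% against 73.3%, ratio 0.68), but 3 of 14 (21.4% against 61.4%) with wide intervals only. TRP channel genes, without the associated genes Trpc4ap and Trpc5os, had 11 of 22 (50% against 72.9%, ratio 0.66). Cation-chloride cotransporters, which carry potassium with chloride, had 6 of 6 (100% against 74.2%, ratio 1.21) and HCN channels 4 of 4 (100% against 71.1%, ratio 1.29). The sodium-potassium pump had 4 of 7 (57.1% against 69.1%, ratio 1.06) and Clcn genes 5 of 9 (55.6% against 71.2%, ratio 1.06). With wide intervals only, HCN channels had 2 of 4.

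The labelled tissue was checked on marker genes. Of 10 hepatocyte markers, 10 had an end interval, against 64.0% of similar-length genes, and 9 exceeded their similar-length median, with a summed ratio of 1.57. With wide intervals only, 4 of 10 had an end interval (40%, against 54.4% of similar-length genes), the same count as among the 10 neuron markers, so these marker sets are not separated by wide end intervals. Over all intervals neuron markers had 7 of 10 (70%, against 69.9% of similar-length genes), with a ratio of 0.84. Among the other markers, end intervals were found at 2 of 8 for cardiac or skeletal muscle (25%, against 68.5% of similar-length genes, ratio 0.41). They were found at 4 of 6 for smooth muscle and stellate cells (66.7% against 70%, 0.83) and 2 of 5 for endothelium (40% against 72.0%, 1.26). Macrophages had 1 of 4 (25% against 63.45%, 0.53) and cholangiocytes 3 of 5 (60% against 65.9%, 0.57). With wide intervals only, smooth muscle and stellate markers had 2 of 6, macrophage markers 0 of 4 and cholangiocyte markers 1 of 5. Positions show where an interval was called and not in which cells it was open, so the part of each cell type in the channel intervals was not tested.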

How the data were processed

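Per the labels, liver ATAC-seq libraries were paired-end. Per the submitters' processing notes, fastp, Bowtie2 and HOMER were used with the build mm10; versions, order, peak threshold, read shift, duplicate filters and the way libraries were combined are not stated in the labels or notes used here. The values deposited by the authors are interval positions in 3 columns, with no score or signal.

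Positions were converted to 1-based coordinates and joined to RefSeq gene spans (GRCm38.p6, without strand) by an overlap of at least 1 bp, and to a RefSeq table of start windows holding 69 of the 94 members. Genes of similar length were the 250 next shorter and 250 next longer protein-coding genes, shifted at the extremes. Reads near an edge of an interval move with the unknown shift, and the unknown threshold sets how many weak sites are counted. Scripts used Python 3.11.15, pandas 2.3.3, NumPy 2.4.6, SciPy 1.17.1 and matplotlib 3.10.9 and were tested on simulated positions. No test was made, because there was 1 list and genes are not replicates.

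Members and lists were chosen with earlier results of these data known. Named genes were the 10 with the most intervals, the 8 highest among similar-length genes, the fullest and the 2 longest empty genes of each family, those with intervals at both ends, the 5 with the most wide intervals and 10 genes studied in liver or other epithelia; genes beyond these, such as those making up a count, were named after their values were seen. Alternatives changed the windows, flanks, widths, joining, chromosomes and comparison genes.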

Additional observations from a re-analysis of the deposited data

How the results depend on the processing

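The lower share of potassium channel genes with an end interval than of all protein-coding genes was found under each of the 8 alternatives run. Among them, joining intervals within 500 bp could not change the share, because such gaps are shorter than the end window. The share was 69.1% against 76.8% with end windows of 5 kb, which narrowed the difference. At the start-site end alone it was 31.9% against 57.8%, counted over the 69 members with a listed start and not over all 94. That value therefore differs from the main share in its members as well as in the end used. The share near a listed start was 31.9% against 52.7% for wide intervals alone and 58.0% against 72.0% within 5 kb. Both were chosen after seeing the data, as were the CpG classes. Of these classes the CpG-rich one alone was varied, and in it members stayed below all protein-coding genes under 6 alternatives. The share above the similar-length median was 23.4 to 30.9% over 11 alternatives, each below that of all genes; the difference narrowed to 30.9% against 39.7% with each interval given to its nearest gene and 27.7% against 36.9% for wide intervals alone. The share without an interval was 27.7% against 30.9% with no flank and 2.13% against 7.26% with a flank of 50 kb. On autosomes alone it was 15.2% against 13.99%, which turned its direction against all genes, since 92 members and fewer other empty genes were counted. The median was 8 in both groups with a flank of 50 kb. No paired analysis was possible because the list has no column per library; leaving out libraries and comparing the strains were not run for the same reason. Depth, and with it the lowest accessibility that the list could hold, is unknown.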
